A study of Mus musculus with 12 samples.

Results

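The GATA factor genes Gata1, Gata2 and Gata3 and the FOG1 gene Zfpm1 were examined in a master peak-list of open chromatin from mouse blood cells. Peaks were chosen by name: a peak belonged to a gene when the deposited annotation gave that gene as its nearest promoter. This gave 49 of the 84243 peaks: 3 for Gata1, 4 for Gata2, 15 for Gata3 and 27 for Zfpm1. A further 5 peaks lay inside the body of Zfpm1 but carried another name, which made 54 peaks named for the genes or inside them. ATAC-seq, which uses a transposase to tag exposed DNA, was run on 2 replicates of each of 6 cell types sorted from wild type C57BL/6 mice of 8 to 12 weeks. The hematopoietic stem cells (HSCs) were cKit+ Lin- Sca1+ Flk2- Slamf1+, the megakaryocyte progenitors (MkPs) cKit+ Lin- Sca1- Slamf1- CD41+, and the erythroid progenitors (EPs) CD71+ with or without Ter119. The granulocyte/macrophages (GMs) were Gr1+ Mac1+, the B cells CD43- B220+ and the T cells CD3+ CD25-. By the labels T cells came from thymus and the others from bone marrow, while the paper's methods name only bone marrow. The list pools all 12 samples and holds no value per sample, so it does not show which cell type opened a given peak, depth is unknown, no value has a replicate error, and the sorted types could not be checked against their markers.

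GATA factors are zinc finger proteins that bind DNA at a short motif around the letters GATA. GATA2 acts in stem and progenitor cells, GATA1 in red cells, megakaryocytes, eosinophils and mast cells, and GATA3 in T cells and other lymphoid cells. FOG1 does not need to bind DNA itself: it joins the amino-terminal finger of GATA1 and is needed for red cells and megakaryocytes. As progenitors become erythroid, GATA1 takes the place of GATA2 at shared sites, the GATA switch, and the Gata2 gene is one of the loci where this is best known. The pair often binds with TAL1, an E protein, LMO2 and LDB1, where an E-box lies next to the GATA motif.

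The sequences that follow are stretches of mm10 from RefSeq (GRCm38.p6), each inside 1 peak and printed 5′ to 3′ on the coding strand of the gene. The first pair are shown because they hold an E-box beside a GATA motif, and capitals mark both. In the Gata1 stretch the motif reads TTATCT, which is AGATAA on the other strand.
Gata2 intron 4 (+9.5), chr6:88203134-88203253, plus strand: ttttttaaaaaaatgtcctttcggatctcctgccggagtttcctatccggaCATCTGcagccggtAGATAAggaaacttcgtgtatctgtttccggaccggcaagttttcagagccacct
Gata1 upstream (HS1), chrX:7971437-7971556, minus strand: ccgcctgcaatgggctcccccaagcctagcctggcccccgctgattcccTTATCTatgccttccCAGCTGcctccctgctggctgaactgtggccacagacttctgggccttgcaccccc
The next pair, from peaks at the published -77 and -3.9 elements of Gata2, are shown because their peaks lacked the exact form AGATAA. Capitals mark the looser motif, GATA preceded by A or T and followed by A or G (WGATAR), on either strand. An E-box beside this looser motif was not searched for. E-boxes such as the CAGGTG before TTATCA in the -77 stretch are therefore unmarked.
Gata2 distal (-77), chr6:88116896-88117015, plus strand: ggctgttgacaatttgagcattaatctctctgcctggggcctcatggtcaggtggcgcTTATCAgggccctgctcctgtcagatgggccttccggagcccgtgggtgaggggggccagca
Gata2 upstream (-3.9), chr6:88189735-88189894, plus strand: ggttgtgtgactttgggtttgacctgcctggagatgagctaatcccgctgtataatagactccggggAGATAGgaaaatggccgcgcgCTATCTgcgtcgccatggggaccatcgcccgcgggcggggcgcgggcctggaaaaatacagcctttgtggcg
The last pair are from introns. The Zfpm1 stretch is shown because its peak held 5 WGATAR sites, the most in any peak of the 4 genes, a number shared with 1 other Zfpm1 peak. The Gata3 stretch holds both WGATAR sites of the only peak in the Gata3 body with such a site. Capitals again mark WGATAR.
Zfpm1 intron 3, chr8:122309345-122309644, plus strand: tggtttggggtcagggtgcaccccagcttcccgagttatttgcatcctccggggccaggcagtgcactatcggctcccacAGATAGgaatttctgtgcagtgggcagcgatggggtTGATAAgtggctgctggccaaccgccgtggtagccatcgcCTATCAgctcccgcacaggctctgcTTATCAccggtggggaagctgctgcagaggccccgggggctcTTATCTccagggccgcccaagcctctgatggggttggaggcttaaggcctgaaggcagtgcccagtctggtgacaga
Gata3 intron 4, chr2:9867373-9867532, minus strand: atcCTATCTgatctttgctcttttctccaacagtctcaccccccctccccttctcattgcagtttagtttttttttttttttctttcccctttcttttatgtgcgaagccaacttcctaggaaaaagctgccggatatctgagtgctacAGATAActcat

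Each of the 4 genes had 1 promoter peak, with its centre within 500 bp of a transcription start site (TSS). Promoter peaks made up 15.6% of the whole list, and 64.5% of the 19040 named genes had at least 1. The other peaks of the 4 genes comprised 16 in introns and 29 between genes. The Gata3 promoter peak was centred 28 bp upstream of its TSS and that of Gata2 30 bp upstream of the downstream one of its pair of TSSs. The promoter peaks of Gata1 and Zfpm1 were centred 284 and 329 bp upstream. The Gata1 peak did not reach the TSS: its near edge was 35 bp and its far edge 533 bp upstream. At Zfpm1, a start that RefSeq only predicts lay 285 bp upstream of the curated TSS and 44 bp from the peak centre. At 1S, the upstream TSS of Gata2, which is 4773 bp before the downstream TSS, there was no promoter peak, and the nearest peak centre was 4008 bp away. The GC content of the Gata2 promoter peak was 72.7%, the highest of the 49, against 64.7% for Zfpm1, 61.7% for Gata3 and 54.3% for Gata1. The median over the 49 peaks was 55.1% and over all peaks 48.9%. Of the 49 peaks, 3 were annotated to a repeat, against 15.1% of all peaks.

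The 4 genes differed in how many peaks were named for them. Across the 19040 genes named in the list the median was 3 peaks and the 90th percentile 10. Gata1 was at that median and Gata2, with 4 peaks, just above it, and 7849 and 6061 genes had more. Gata3, with 15, had more than 95.7% of the named genes, and Zfpm1, with 27, had more than 99.3%. Only 116 genes had more peaks than Zfpm1. The order of these 2 genes depended on the assignment: by the nearest RefSeq Select TSS, Gata3 had 27 peaks and Zfpm1 22. The peaks also lay at different distances from the TSS that HOMER chose: the median distance was 3533 bp for Gata1, 4295 bp for Gata2, 16957 bp for Zfpm1 and 184582 bp for Gata3.

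**Figure D1:**
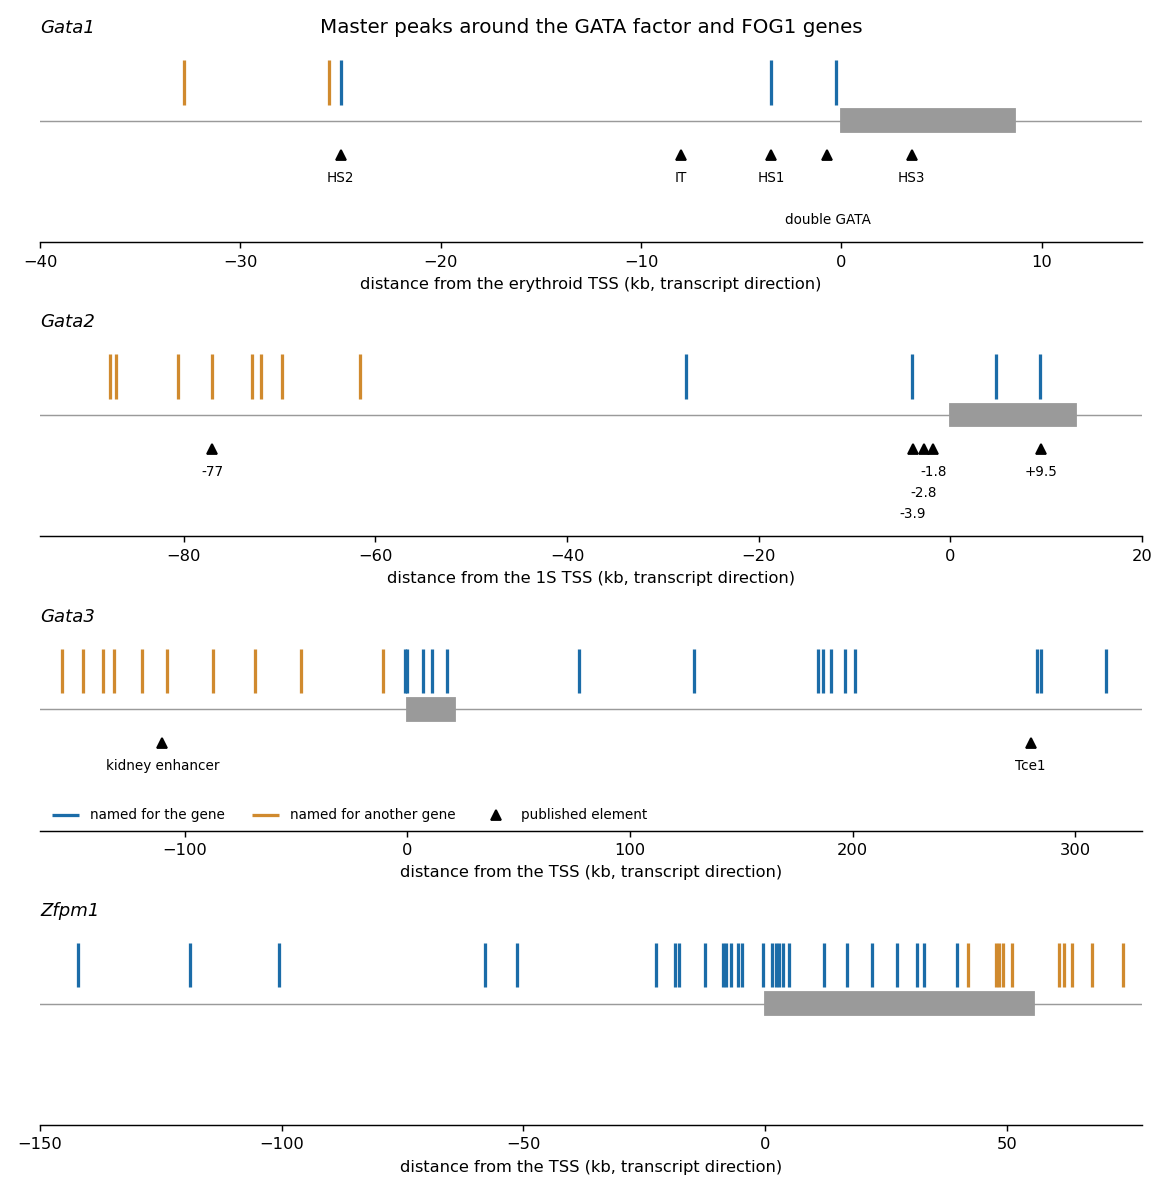
Peak positions along each locus, in kb from the reference TSS in the direction of transcription (1S for Gata2), with grey boxes for gene bodies and triangles for published elements. Blue bars are peaks named for the gene and orange bars peaks of its regulatory domain named for another gene. The 5 Gata3 domain peaks named for 1700061F12Rik lie beyond the right edge. The Gata1 body holds 0 peaks and the Zfpm1 body 17.

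The Gata1 body, 8651 bp on the minus strand of chromosome X (7959260 to 7967910), held 0 peaks. The peaks named for Gata1 all lay upstream, at 284, 3533 and 24991 bp. The peak at 3533 bp is at chrX:7971194-7971692. It was centred 33 bp from the published position of HS1, the enhancer 3.5 kb upstream that works in red cells and megakaryocytes. Its E-box (CAGCTG) and AGATAA, printed above, made a 21-base composite 54 bp from the peak centre. The peak at 24991 bp, chrX:7992652-7993150, was 9 bp from the published position of HS2, 25 kb upstream. A second peak was centred 598 bp farther out, on a B1 repeat, and was named for Glod5, the neighbouring gene. No peak lay at HS3 in the first intron, where the nearest peak centre was 3784 bp away, nor at the testis promoter 8 kb upstream, where it was 4467 bp away. A palindromic pair of GATA sites in the proximal promoter, published about 0.7 kb upstream and needed for eosinophils, fell within 416 bp of the promoter peak centre. That peak ended short of it, at 533 bp, and held 0 WGATAR sites.

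Gata2 spans 13142 bp on the plus strand of chromosome 6 (88193891 to 88207032), counted from 1S. Its 4 named peaks were at -27585, -4008, 4743 and 9355 bp from 1S. The peak at 9355 bp, chr6:88202997-88203495, lay in intron 4, 145 bp from the published +9.5 position. This is the intronic enhancer that HSC generation in the embryo depends on. HOMER lists the same peak 4582 bp from its TSS, since it measured from the downstream start. The composite in it was CATCTGCAGCCGGTAGATAA, 20 bases at chr6:88203185-88203204, 52 bp from the peak centre. CATCTG followed by 6 to 14 bases and AGATAA, on either strand, was present in 0.152% of all peaks (128 peaks). The exact 20 bases were taken from this peak and were in no other, which their length alone makes likely. With any E-box (CANNTG) in place of CATCTG the share of all peaks was 1.68%, and 2 of the 49 peaks had it, the Gata2 +9.5 and the Gata1 HS1 peaks. Each such composite contains AGATAA, so the counts overlap with those of AGATAA alone.

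The -77 element of Gata2 is a distal enhancer used in myeloid and erythroid progenitors. A peak was centred 77018 bp upstream of 1S, 18 bp from the published distance, at chr6:88116624-88117122. It was not among the 49, because HOMER had named it for Mir6376, a microRNA gene 12615 bp away. All 8 peaks between 61625 and 87715 bp upstream of Gata2 carried that name. A second of them, at -80592 bp, was also within 5% of the published distance. The -77 peak held 0 AGATAA and 1 WGATAR site, and the -3.9 peak, at -4008 bp and 108 bp from its published position, held 0 and 2. The -3.9, -2.8 and -1.8 elements are GATA switch sites. No peak was within 0.5 kb of the -2.8 or the -1.8 position, with nearest centres 1208 and 2208 bp away. The 499 bp around the published -2.8 position held 2 AGATAA sites and those around -1.8 held 1, so GATA motifs were there without a peak in the list.

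Of the 12 published elements, 8 had a peak centre within the larger of 0.5 kb and 5% of the published distance: 3 of 5 at Gata1, 3 of 5 at Gata2 and 2 of 2 at Gata3. These distances come from general knowledge of the loci and not from the deposited list. They are rounded, so small gaps lie within the rounding. For the far Gata3 elements they are known only to the nearest 10 kb. The 8 include the Gata1 double GATA site, which the peak did not reach. They also include the Gata3 kidney enhancer, whose peak cannot be identified as that element. The windows there were wide, 14 kb to each side for Tce1 and 5.5 kb for the kidney enhancer. How often other positions have a peak in such windows was not tested.

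**Figure D2:**
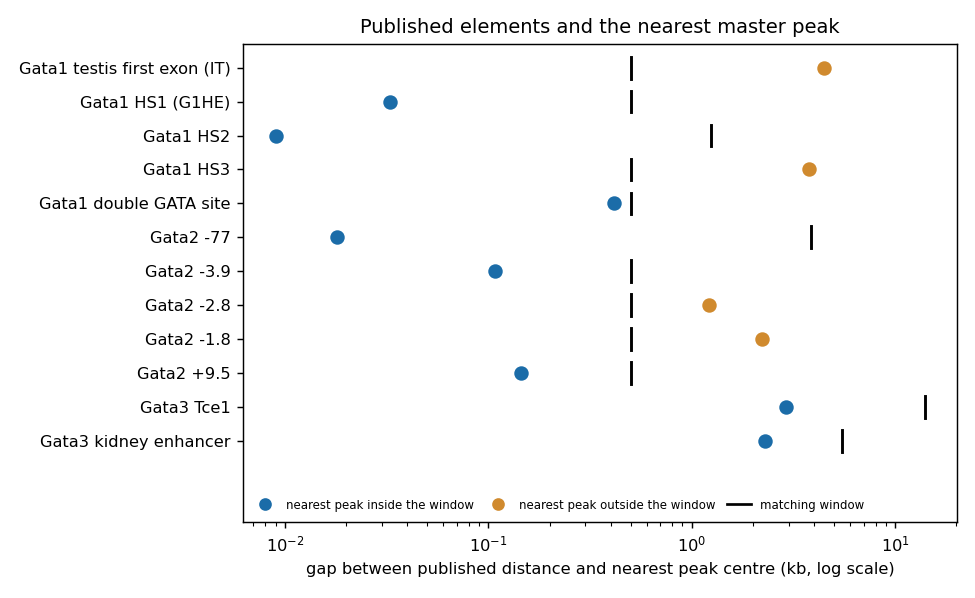
Gap between the published distance of each of 12 elements and the nearest peak centre, in kb on a log axis, with a vertical bar at the matching window. The HS1, HS2, -77, -3.9 and +9.5 gaps lie between 0.009 and 0.145 kb, and HS3, the testis first exon (IT), -2.8 and -1.8 lie outside their windows.

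Gata3 spans 21523 bp on the minus strand of chromosome 2 (9857078 to 9878600). Its promoter peak had a neighbour centred 1030 bp from it, 1058 bp upstream of the TSS, and 3 peaks lay in the body, in introns 3, 4 and 5 at 7241, 10978 and 17683 bp. The other 10 named peaks were all downstream of the gene, from 76997 to 313938 bp from the TSS. Of these, 5 sat together between 184582 and 201261 bp. Tce1, an enhancer for T and NK cells, lies about 280 kb downstream, and 2 peaks, at 282925 and 284541 bp, were within 5% of that distance. The nearer held 0 WGATAR sites and 3 copies of AGGAAG, the ETS motif, and the other 1 of each. On the upstream side the nearest peak to the embryonic kidney enhancer, published about 110 kb away, was 107724 bp upstream in an intron of Taf3 and on a B4 repeat. With a distance known only to the nearest 10 kb, it cannot be identified as that enhancer. By the basal plus extension rule, the regulatory domain of Gata3 ran from the 1 Mb limit, short of Celf2, to the region of Taf3. It was 1169 kb long and held 30 peaks. Those not named for Gata3 numbered 15: 6 for Taf3, 3 for Gm13262, 1 for 9230102O04Rik and 5 for 1700061F12Rik. The same rule gave 5 peaks to Gata1 (67.6 kb, Hdac6 to Glod5), 12 to Gata2 (134.8 kb, Rpn1 to Dnajb8) and 32 to Zfpm1 (130.6 kb, Zfp469 to Trhr2).

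Zfpm1 spans 55722 bp on the plus strand of chromosome 8 (122282141 to 122337862), and its body held 17 peaks, all in introns: 8 in intron 1, 4 in intron 3, 4 in intron 4 and 1 in intron 5. The 5 in introns 4 and 5 were named for Trhr2, the gene that follows. This was 3.05 peaks per 10 kb, against 1.52 for Gata2, 1.39 for Gata3 and 0 for Gata1. The median over 16162 protein-coding genes of at least 5 kb was 0.46, and 268 genes were denser than Zfpm1. No peak lay in 28.5% of these genes, as in Gata1. Upstream of Zfpm1 were 14 further peaks named for it, from 4707 to 142236 bp away, 5 of them within 10 kb. Another 5 were over 50 kb away and outside the Zfpm1 domain, beyond the bound set by Zfp469. The domain held 22 of the 27 named peaks. Over the 27 peaks named for Zfpm1, the median gap between neighbouring centres was 4081 bp and the smallest 648 bp.

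GATA motifs were counted on both strands of each 499 bp peak. AGATAA was in 15 of the 49 peaks (30.6%, exact 95% binomial interval 18.3 to 45.4%) and in 24.1% of all peaks, so the share over the 4 genes was near that of the list. It was in 1 of 3 Gata1 peaks, 1 of 4 Gata2 peaks, 5 of 15 Gata3 peaks and 8 of 27 Zfpm1 peaks. In the central 200 bp it was in 8 of the 49, against 11.2% of all peaks. WGATAR, which includes AGATAA, was in 27 of the 49 (55.1%) against 53.7%. These intervals cover counting error only.

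At Zfpm1, AGATAA was in 8 of the 17 body peaks (47.1%, interval 23.0 to 72.2%), with 12 sites in all, and in 1 of the 15 peaks named for Zfpm1 outside the body (6.67%, interval 0.169 to 31.9%). These intervals overlap, which does not settle whether the shares differ, and no test of the difference was made. The 15 include the 5 peaks over 50 kb upstream, beyond the Zfp469 bound, and the 1 with AGATAA is among them. The share over all intron peaks was 27.3%. The body peaks with 2 AGATAA sites were those at 2869, 31381, 39627 and 48503 bp, and 4.1% of all peaks held at least that many. With the looser motif, 11 of the 17 body peaks and 6 of the 15 others had a site. The peaks at 27254 and 31381 bp, both in intron 3, held 5 WGATAR sites each, and 0.624% of all peaks (526) held 5 or more.

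**Figure D3:**
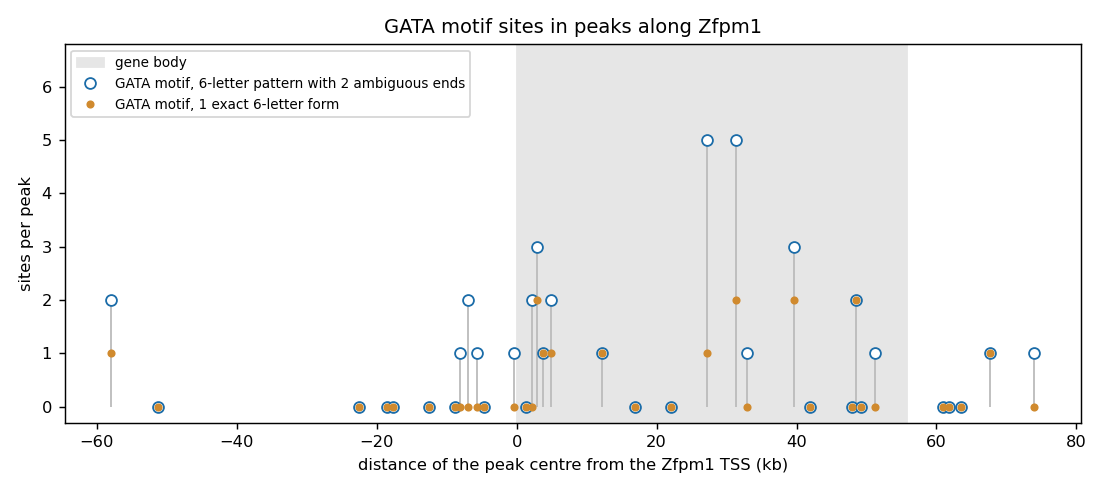
GATA motif sites per peak (y axis) against the distance of the peak centre from the Zfpm1 TSS in kb (x axis), with the gene body in grey; open circles count WGATAR and filled circles the exact form. The highest values, 5 open-circle sites, are at 27254 and 31381 bp inside the body, while 3 peaks over 100 kb upstream lie beyond the left edge.

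**Figure D4:**
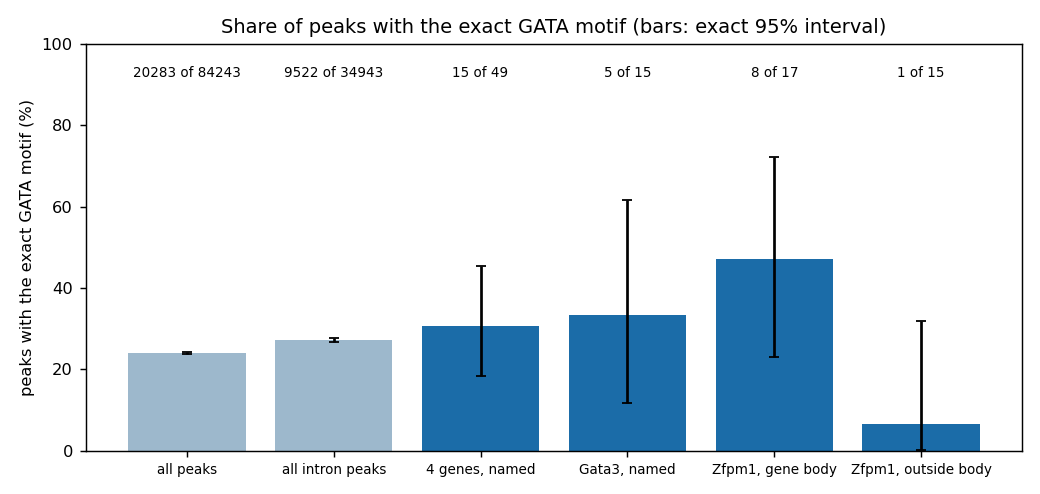
Percent of peaks with the exact 6-letter GATA motif in 6 sets of peaks, with exact 95% binomial intervals as error bars and the counts above. The Zfpm1 body stands at 47.1% and the Zfpm1 peaks outside it at 6.67%, with intervals that overlap each other, and that of the Zfpm1 body also reaches the 24.1% of all peaks. Such overlap does not settle whether the shares differ, which was not tested.

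The motifs of ETS and RUNX factors, which work beside GATA factors in blood cells, were searched in the same way. AGGAAG, the ETS motif, was in 62.4% of all peaks and in 26 of the 49. It was in 12 of 15 Gata3 peaks (80.0%, interval 51.9 to 95.7%), 3 of 3 Gata1 peaks, 1 of 4 Gata2 peaks and 10 of 27 Zfpm1 peaks (37.0%, interval 19.4 to 57.6%). The Gata3 peak in intron 5 held 6 copies, a number reached by 0.431% of all peaks. TGTGGT, the RUNX motif, was in 17 of the 49 (34.7%) and in 38.9% of all peaks. A copy of either motif can share bases with the end of an AGATAA site.

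The rest of the network was counted for context. Of the relatives that act mainly outside blood, Gata4 had 0 named peaks, Gata6 1 and Gata5 3, as many as Gata1, but none at a promoter, against 1 promoter peak for each of Gata1, Gata2 and Gata3. Inside the gene bodies were 1 peak at Gata4, 1 at Gata6, 0 at Gata5 and 4 at Zfpm2, against 0 at Gata1. These bodies differ in length: 46.4, 33.1, 9.59, 450 and 8.65 kb, in that order. The nearest Gata5 peak was 11243 bp from its TSS and the Gata6 peak 110402 bp. The FOG1 relative Zfpm2 (FOG2) had 2 peaks, 1 at its promoter, beside 27 for Zfpm1. Trps1, an atypical GATA repressor, was the exception with 48 peaks, of which 22 held AGATAA, against 24.1% of all peaks. Its body was 235 kb long and held 21 peaks.

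All 9 genes for partners of GATA1 had a promoter peak, as did 64.5% of all named genes. Lmo2, an adaptor of the complex, had 14 named peaks, Tcf3, an E protein gene, 7, Tal1 6 and Ldb1 4. Runx1 had 35, the ETS gene Fli1 38, Gfi1b, a repressor, 6, Spi1 (PU.1, which opposes GATA1) 5 and the erythroid factor gene Klf1 3. The 6 genes for GATA targets described here also had a promoter peak. Kit, the stem cell factor receptor, had 16, Nfe2 6, Alas2, which starts heme synthesis in red cells, 5, Itga2b, which encodes the CD41 used to sort MkPs, 4, Pf4 3 and Epor, the erythropoietin receptor, 2. Of 5 genes tied to GATA3 in T cells, only Il4, with 3 named peaks, had a promoter peak within 500 bp. Within 1000 bp there were 2 of 5, with Bcl11b at 652 bp, against 68.9% of all named genes. Tcf7 had 8, Bcl11b 4, Il13 3 and Il5 2. AGATAA was in 30.6% of the peaks of the 4 genes, 30.5% of partner peaks and 36.1% of target peaks. It was in 40.7% of peaks for the relatives, where all 22 such peaks were those of Trps1, 35.0% for the GATA3 genes, 23.5% for the RUNX genes with Cbfb and 15.4% for the C/EBP genes. The share over all peaks was 24.1%, and no test compared these shares.

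**Figure D5:**
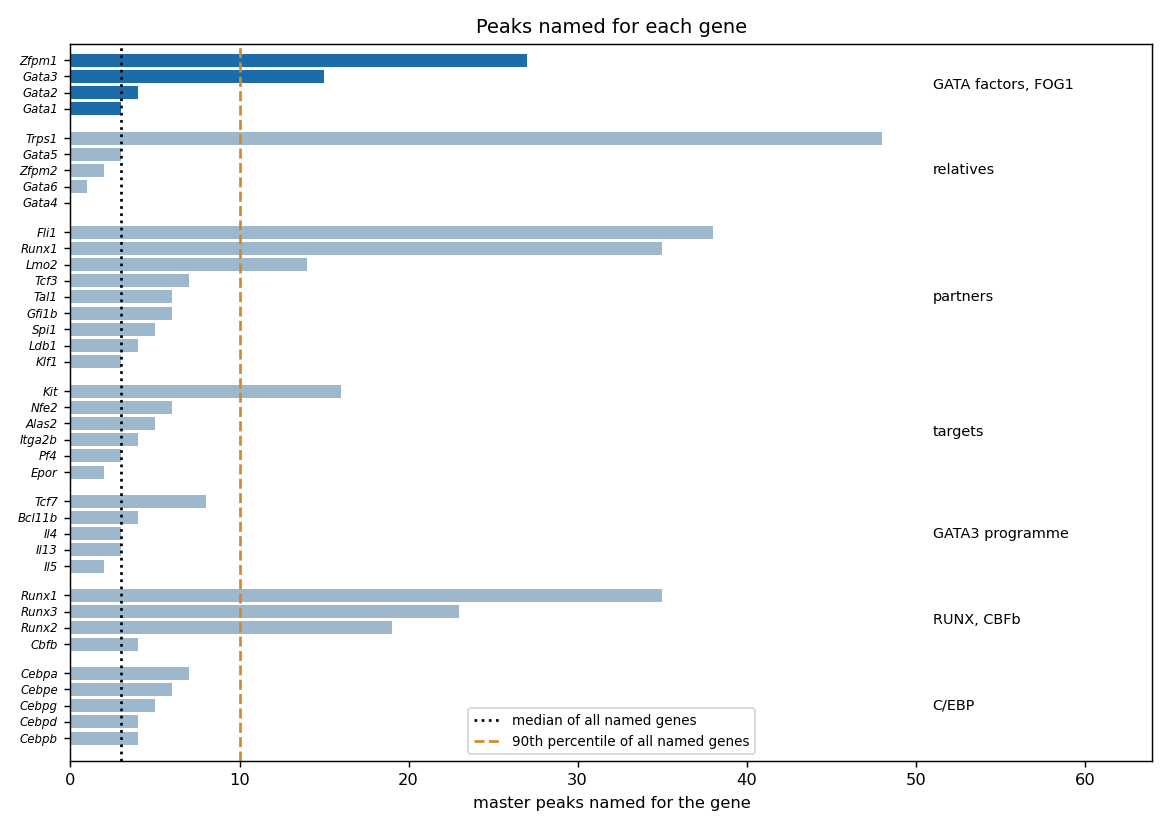
Number of peaks named for each gene (bars), for the 4 genes in dark blue and for 6 lists of other genes in light blue, with lines at the median (3, dotted) and 90th percentile (10, dashed) of all named genes. Zfpm1 (27) and Gata3 (15) lie past the dashed line, and Gata1 (3) and Gata2 (4) at or next to the dotted line.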

How the data were processed

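The authors aligned ATAC-seq reads to mm10 with the ENCODE pipeline. With chromVAR they merged the peaks of all cell types and filtered them into 1 master peak-list of non-overlapping 499 bp windows. They annotated this list with HOMER (version 4.10.2 in the submitters' processing notes). The distance of each peak to a TSS was used as the authors deposited it, in bp and without normalization. The deposited score was 0 in every peak and was not used. No read counts per peak were used, so depth and its precision are unknown.

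Gene bodies, TSSs and sequence came from RefSeq (GRCm38.p6) with curated transcripts. Peaks were placed by their centre. Domains ran 2 kb upstream and 1 kb downstream of a RefSeq Select TSS, and up to 1 Mb to the next such region. Motifs were searched on both strands with code tested on simulated sequences with AGATAA planted. The other motifs were not tested in that way. The 4 genes, the lists and the elements were chosen with earlier results of these data known. Genes named are the 4, those lists, names of peaks in the loci and bounding neighbours; Gm13262, 9230102O04Rik, 1700061F12Rik and Mir6376 were named after their values were seen. A gene of these lists is not reported here. All results are descriptions of 1 pooled list, without a test. Python 3.11.15, numpy 2.4.6, pandas 2.3.3, pyfaidx 0.9.0.4 and matplotlib 3.10.9 were used.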

Additional observations from a re-analysis of the deposited data

How the results depend on the processing

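The number of peaks counted for the genes depended on the rule: 49 peaks carried the names of the 4 genes, 56 had the RefSeq Select TSS of one of them as the nearest, and 79 lay in their basal plus extension domains. Promoter peaks fell from 4 to 2 with a limit of 100 bp, those of Gata1 and Zfpm1 being lost, and stayed 4 with 1000 bp. Peaks with a GATA motif rose from 15 to 27 with WGATAR and fell to 8 in the central 200 bp, and the composite went from 1 to 2 with any E-box. Peaks in gene bodies (22, 23 or 22) and elements with a peak (8, 7 or 8) moved by less than 1.5 times, and the 7 lacked the double GATA site of Gata1. The nearest TSS rule gave Gata3 27 peaks in place of 15 and Zfpm1 22 in place of 27. A stricter score and leaving out replicates were not run, since the score is 0 throughout and no value is given per sample. No paired analysis was possible because the list holds no values per sample. A missing peak may be a closed region, one below the threshold in these cells, or a called peak that the authors' filtering removed. Which of these applies was not tested.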

Other observations

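The 8 peaks upstream of Gata2 that were named for Mir6376, from -87715 to -61625 bp of 1S, each held the RUNX motif TGTGGT at least once, which was in 38.9% of all peaks. The ETS motif AGGAAG was in 6 of them, WGATAR in 4 and AGATAA in 0, against 62.4%, 53.7% and 24.1% of all peaks. The GC content of the 8 ran from 49.1 to 61.5%. This group was picked after its values were seen, so the counts are a description of that stretch only.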
